A study of Mus musculus with 24 samples.

Results

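The gene expression of undifferentiated mouse embryonic stem cells (ESCs) lacking both Tet1 and Tet2 (DKO, Tet1-/-:Tet2-/-) was compared with that of wild-type (WT) ESCs. The comparison took 5 of the 24 libraries of the series: the 2 DKO clones, called DKO-1 and DKO-2 after their D0 replicate numbers, and the WT clones O4.1, O4.2 and O4.13, all at day 0 (D0), that is, grown with leukemia inhibitory factor (LIF), the cytokine that holds ESCs in the pluripotent state. WT and DKO clones shared the same 129/SVj background and the same eGFP reporter inserted at the Pou5f1 locus, so the WT clones also carry that allele, and the clones were grown on gelatin without feeder cells. Each library came from 1 clone, and the DKO clones were made by transient Cas9 editing of 1 parental clone. Values are listed in the order DKO-1, DKO-2 and O4.1, O4.2, O4.13 throughout. The D6 labels number the same DKO clones the other way round, and the D0 names are kept for them. The other libraries used here were D0 clones of Tet1-/- (3), Tet2-/- (2) and TKO, which lacks Tet1, Tet2 and Tet3 (2), and the same DKO and WT clones after 6 days without LIF (D6). Clones were the replicates, so an editing event that 1 clone alone carries cannot be told apart from the genotype in a group of 2.

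Tet proteins oxidize 5-methylcytosine at CpG dinucleotides to 5-hydroxymethylcytosine and further forms, which leads to loss of DNA methylation. Tet1 and Tet2 are the members that ESCs express most, while Tet3 is low in these cells. Tet1 also binds chromatin regulators such as Sin3a, and Tet proteins carry sugar-transferase partners such as Ogt.

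The edited sites are shown because a short insertion or deletion changes the coding sequence and leaves most of the transcript in place, which limits what RNA-seq can say of the genotype. Each guide is written 5' to 3' with the genomic base triplet that Cas9 requires next to it (the PAM) in capitals. Each was found once within its own gene in mm9, on the minus strand, which is also the strand of both genes. Sites elsewhere in the genome were not examined. The Tet1 guide lies at chr10:62296296-62296315, in coding sequence of 3 of 7 annotated Tet1 transcripts, and the Tet2 guide at chr3:133148620-133148639, in coding sequence of 2 of 2 annotated Tet2 transcripts.
Tet1 guide: ggctgctgtcagggagctcaTGG
Tet2 guide: gaaagtgccaacagatatccAGG
The sequenced alleles of the DKO clones were matched to mm9, and the deleted bases are in capitals. The allele table numbers its DKO clones 1 and 2 and does not tie them to DKO-1 and DKO-2.
Tet1, clone 1, allele 1: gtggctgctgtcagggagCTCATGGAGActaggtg
Tet1, clone 1, allele 2: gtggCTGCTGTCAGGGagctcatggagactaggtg
Tet1, clone 2, allele 1: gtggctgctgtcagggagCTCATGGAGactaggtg
Tet2, clone 1, allele 1: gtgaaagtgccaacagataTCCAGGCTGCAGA
Tet2, clone 2, allele 1: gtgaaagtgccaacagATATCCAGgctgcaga
The Tet1 deletions removed 10, 12 and 9 bases, of which 12 and 9 are multiples of 3, and the remaining Tet1 allele lacked the whole 35-base window. The Tet2 deletions removed 8 bases and 13 bases up to the end of the window. Of the remaining Tet2 alleles, 1 carried an insertion of A with no deleted base and 1 lost 2 bases together with base changes.

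Polyadenylated RNA was counted per RefSeq transcript, and levels are given as CPM (a gene's counts scaled to a fixed library size, after scaling by edgeR's TMM method). The D0 libraries held 21729346 to 37290208 counts, and 3 counts, the limit that a count of 0 allows, equal 0.125 and 0.139 CPM in the DKO libraries (counting error only). ESC markers were high in all 5 libraries: the 8 markers summed to 5604 to 5796 CPM in DKO and 5240 to 5596 in WT. Markers of other cells were low, with sums of 6.95 to 7.09 CPM in DKO against 6.81 to 7.67 in WT for primitive endoderm (6 markers) and 29.1 to 29.5 against 27.9 to 34.2 for fibroblasts (6 markers, of which Thy1 held most and Lum was at 0 in all 5 libraries). The 5 mesoderm markers summed to 9.72 to 13.3 CPM in DKO against 3.59 to 8.02 in WT, which was mostly Kdr, while the groups overlapped for T, Mixl1, Mesp1 and Hand1, and neuroectoderm markers had sums of 17.3 to 19.3 against 14.3 to 17.2. The part of these low signals in the other results was not tested. Clones varied least in DKO, with a biological coefficient of variation of 0.0756, against 0.114 in WT, 0.0932 in Tet1-/-, 0.0760 in Tet2-/- and 0.302 in TKO. All 12 D0 libraries entered 1 fit, so the spread of the TKO clones also set the threshold for DKO against WT.

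RNA of the edited genes was still present. Tet1 had 349.8 and 217 CPM in DKO and 408, 209 and 349 in WT. The groups overlapped, and the log2 fold change was -0.18 (SE 0.765, adjusted p = 0.936, edgeR). Tet2 had 52.3 and 21.0 CPM in DKO and 88.9, 89.0 and 83.4 in WT, so both DKO libraries were below all WT libraries, and DKO-2 was at the level of the Tet2-/- clones (19.6 and 21.6 CPM). Its log2 fold change of -1.25 (SE 0.496) had an adjusted p of 0.28 and was not called. It was -2.04 without DKO-1 and -0.73 without DKO-2, and it was called without the TKO libraries or without either of them. Tet3, which was not targeted in DKO, had 5.88 and 5.75 CPM in DKO and 4.78, 7.55 and 5.74 in WT and a log2 fold change of -0.05 (adjusted p = 0.939). The levels of Tet1 and Tet2 RNA neither check nor question the labels, because short deletions leave most of a transcript in place.

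Across the transcriptome, DKO and WT differed at few genes that passed the test. Calls needed a change of more than 2-fold and, in edgeR's quasi-likelihood test, an adjusted p (Benjamini-Hochberg) under 0.05. Of 14456 genes tested, Sall2 and Adrb3 rose and Hydin, Pdcl2 and Ptges fell, which is 0.0346% of the genes (0.0138% higher and 0.0208% lower). A further pair, Kirrel and Pgrmc1, had an adjusted p under 0.05 and a change of less than 2-fold. Without the adjustment, 943 genes (6.52%) were higher and 1138 (7.87%) lower at p under 0.05, and in 20.7% and 20.5% of the genes both DKO libraries lay above or below all WT libraries. The count of calls rested on which libraries set the spread, and also on the tool and the filter. DESeq2 on the same 12 libraries called 31 higher and 79 lower, and edgeR without the filter on low counts 25 and 54. With the 5 DKO and WT libraries alone, 36 genes were called higher and 97 lower, and without the TKO libraries, an alternative chosen after their spread was seen, 82 were called higher and 146 lower. Leaving out either TKO library alone gave 85 or 86 higher and 149 lower. Leaving out any other single library gave 0 or 1 higher and 0 to 3 lower, with 0 in all without DKO-1 or the third Tet1-/- replicate.

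**Figure D1:**
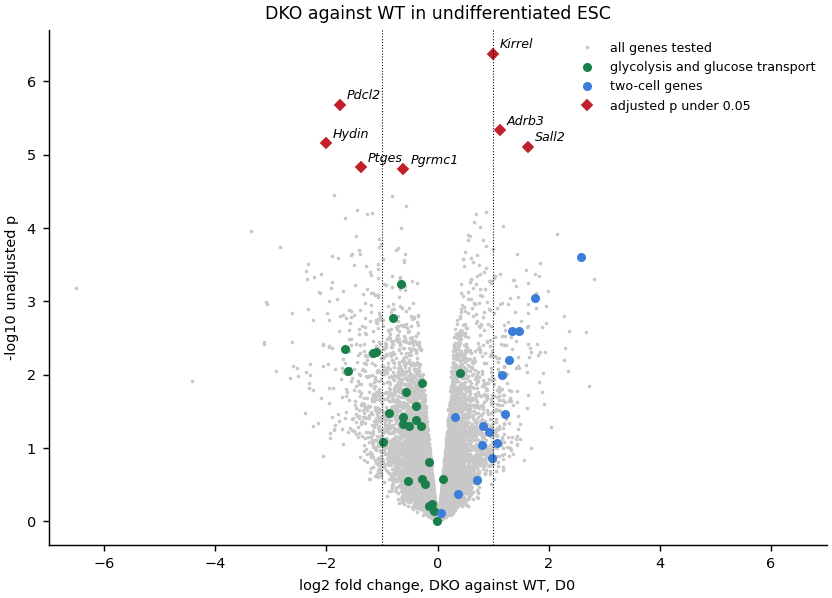
Each point is 1 of the 14456 genes, with the log2 fold change of DKO against WT at D0 on the x axis and -log10 of the unadjusted p on the y axis. The 7 genes with an adjusted p under 0.05 are named, glycolysis genes (green) lie mostly left of 0, 2-cell genes (blue) lie right of 0, and dotted lines mark 2-fold.

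Sall2, a zinc-finger transcription factor of the spalt family (mm9, chr14:52930847-52948437, minus strand), was the gene called higher with the larger change. It had 27.3 and 28.9 CPM in DKO and 9.06, 7.71 and 10.4 in WT, a 3.097-fold difference with no overlap (log2 fold change 1.63, SE 0.223, adjusted p = 0.0225). In RNA from a whole culture, a change in the share of cells that express a gene and a change in RNA per cell cannot be told apart. Adrb3, the beta-3 adrenergic receptor (chr8:28336248-28340060, minus strand), had 17.3 and 15.3 CPM in DKO and 6.88, 8.10 and 7.58 in WT (log2 fold change 1.12, SE 0.145, adjusted p = 0.0223). Both DKO clones thus stood at about the same level, and the lowest DKO library was well above the highest WT library for each gene.

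Hydin, which encodes a structural protein of motile cilia (chr8:112790877-113134153, plus strand), had the largest fall among the called genes. It had 1.71 and 1.44 CPM in DKO and 6.12, 6.42 and 6.56 in WT (log2 fold change -2.01, SE 0.271, adjusted p = 0.0225). Pdcl2, a phosducin-like protein known from male germ cells (chr5:76741140-76760181, minus strand), had 2.67 and 2.69 CPM in DKO and 9.33, 7.82 and 10.1 in WT (log2 fold change -1.76, SE 0.211, adjusted p = 0.0149). Ptges, the microsomal prostaglandin E synthase (chr2:30744991-30785383, minus strand), had 7.76 and 6.26 CPM in DKO and 14.4, 23.4 and 17.1 in WT, with a log2 fold change of -1.38 (SE 0.201, adjusted p = 0.0323). WT clone O4.2 was the highest library for Ptges, and the lowest WT clone was still above both DKO clones. The groups did not overlap for any of these genes, which the rule for naming them required. The call was lost in 10 of 21 alternative settings for Hydin, in 4 for Pdcl2 and in 9 for Ptges, with the direction kept.

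Since Tet proteins act on CpG dinucleotides, the promoters of the most changed of the called genes in each direction are shown, from 250 bases before to 50 after a start site (RefSeq, GRCm38.p6, gene strand), with CpG in capitals. Sall2 has 2 such windows in the table, and the one with more CpG is printed, at chr14:52316274-52316573 on the minus strand. Hydin's is at chr8:110266727-110267026 on the plus strand.
Sall2 promoter: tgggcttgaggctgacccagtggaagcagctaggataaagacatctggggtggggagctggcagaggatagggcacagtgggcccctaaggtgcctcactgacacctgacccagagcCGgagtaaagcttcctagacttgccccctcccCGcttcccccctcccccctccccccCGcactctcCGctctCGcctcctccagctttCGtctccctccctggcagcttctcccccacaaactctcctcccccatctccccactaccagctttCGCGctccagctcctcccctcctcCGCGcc
Hydin promoter: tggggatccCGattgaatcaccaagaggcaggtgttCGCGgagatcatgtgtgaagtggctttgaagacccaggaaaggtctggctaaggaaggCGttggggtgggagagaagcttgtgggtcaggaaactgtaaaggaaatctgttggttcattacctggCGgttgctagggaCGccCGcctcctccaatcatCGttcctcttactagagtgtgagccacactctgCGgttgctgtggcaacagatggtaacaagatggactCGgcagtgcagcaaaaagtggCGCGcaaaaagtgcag
These hold 10 and 12 CpG, and 56.5% and 60.4% of 32851 promoter windows hold fewer (median 7, quartiles 3 and 20). The other Sall2 window holds 1 CpG, that of Pdcl2 7 and that of Ptges 10. All of these counts except the 1 of the second Sall2 window lie between the quartiles.

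The pair below 2-fold included the gene with the smallest p of all. Kirrel, a cell adhesion protein of the nephrin family (chr3:86882515-86978669, minus strand), had 46.0 and 47.7 CPM in DKO and 21.3, 24.5 and 24.8 in WT, 1.99-fold higher (log2 fold change 0.99, SE 0.103, adjusted p = 0.00604). Pgrmc1, a heme-binding membrane protein (chrX:34138201-34146074, plus strand), had 70.0 and 67.7 CPM in DKO and 105, 110.0 and 101 in WT (log2 fold change -0.62, SE 0.0902, adjusted p = 0.0323). Libraries of the same genotype were close to each other for both genes, and the groups did not overlap.

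The next genes by p did not pass the test and are given by their values. Among those higher in DKO, Dpp4 (dipeptidyl peptidase) had 31.0 and 34.0 CPM in DKO and 15.3, 20.7 and 17.04 in WT. Eif2s2, a subunit of the translation initiation factor eIF2, had 1109 and 1158 CPM in DKO and 617, 752 and 744 in WT, the highest level in this set. St6gal2, a sialyltransferase, had the largest ratio and the lowest level, with 1.04 and 0.973 CPM in DKO and 0.191, 0.235 and 0.246 in WT. The log2 fold changes of these and of AI314180, Ankrd44, Steap2 and Tmem64 ran from 0.54 (Tmem64) to 2.15 (St6gal2), with adjusted p from 0.0624 to 0.0744. Among those lower, Naa11, an amino-terminal acetyltransferase subunit, had 3.21 and 3.75 CPM in DKO and 8.07, 16.7 and 13.4 in WT. Aldh6a1, a mitochondrial dehydrogenase of valine breakdown, had 24.7 and 25.7 CPM in DKO and 47.1, 44.6 and 42.0 in WT. Klk8, a secreted serine protease, had 8.97 and 7.60 CPM in DKO and 20.4, 17.7 and 22.2 in WT. With Akap2, a protein kinase A anchor, Rps6kl1 and Acap1, their log2 fold changes ran from -1.87 (Naa11) to -0.56 (Akap2), with adjusted p from 0.059 to 0.0624. In all 13 genes the DKO and WT libraries did not overlap, as in 20.7% (higher) and 20.5% (lower) of all genes. Since these genes were chosen by p from the same libraries, this adds no support.

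The other knockouts placed these genes differently. Sall2 had 24.9, 22.5 and 23.4 CPM in Tet1-/- and 6.34 and 6.01 in Tet2-/-, so the Tet1-/- clones lay near DKO and the Tet2-/- clones near or below WT. DKO exceeded Tet2-/- by 2.19 on the log2 scale (SE 0.258, adjusted p = 0.00144), while its difference from Tet1-/- was 0.25 (SE 0.219, adjusted p = 0.878). Kirrel had the same arrangement, with 44.3, 42.1 and 42.2 CPM in Tet1-/- and 22.7 and 25.1 in Tet2-/-, and DKO minus Tet2-/- was 0.97 (adjusted p = 0.00144) against 0.13 for DKO minus Tet1-/- (adjusted p = 0.87). Hydin showed the reverse, with 5.53, 4.72 and 4.41 CPM in Tet1-/- and 1.84 and 1.55 in Tet2-/-. DKO minus Tet2-/- was -0.10 for Hydin (SE 0.303, adjusted p = 0.836) and DKO minus Tet1-/- was -1.63 (SE 0.271, adjusted p = 0.159).

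For Ptges and Pgrmc1, both single knockouts had levels nearer to WT than DKO did. Ptges had 15.98, 17.6 and 16.99 CPM in Tet1-/- and 12.8 and 14.9 in Tet2-/-, and Pgrmc1 had 104, 114 and 107 CPM in Tet1-/- and 101 and 96.7 in Tet2-/-. DKO minus Tet2-/- on the log2 scale was -0.98 for Ptges (adjusted p = 0.0121) and -0.52 for Pgrmc1 (adjusted p = 0.00764), both under 2-fold and below the adjusted threshold. Against Tet1-/- the differences were -1.26 (adjusted p = 0.159) and -0.66 (adjusted p = 0.124). Pdcl2 lay between WT and DKO in both single knockouts, with 5.601, 7.76 and 7.01 CPM in Tet1-/- and 4.45 and 5.14 in Tet2-/-, and so did Adrb3, with 12.7, 10.1 and 12.4 CPM in Tet1-/- and 9.02 and 9.98 in Tet2-/-. The TKO clones were at 6.02 and 5.66 CPM for Ptges, 1.31 and 0.975 for Pdcl2 and 17.7 and 16.8 for Adrb3. These comparisons share libraries, so the placements are not independent of each other. For these 7 genes, the test for a departure of DKO from the sum of the single knockouts gave adjusted p from 0.068 (Pgrmc1) to 0.716 (Adrb3).

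**Figure D2:**
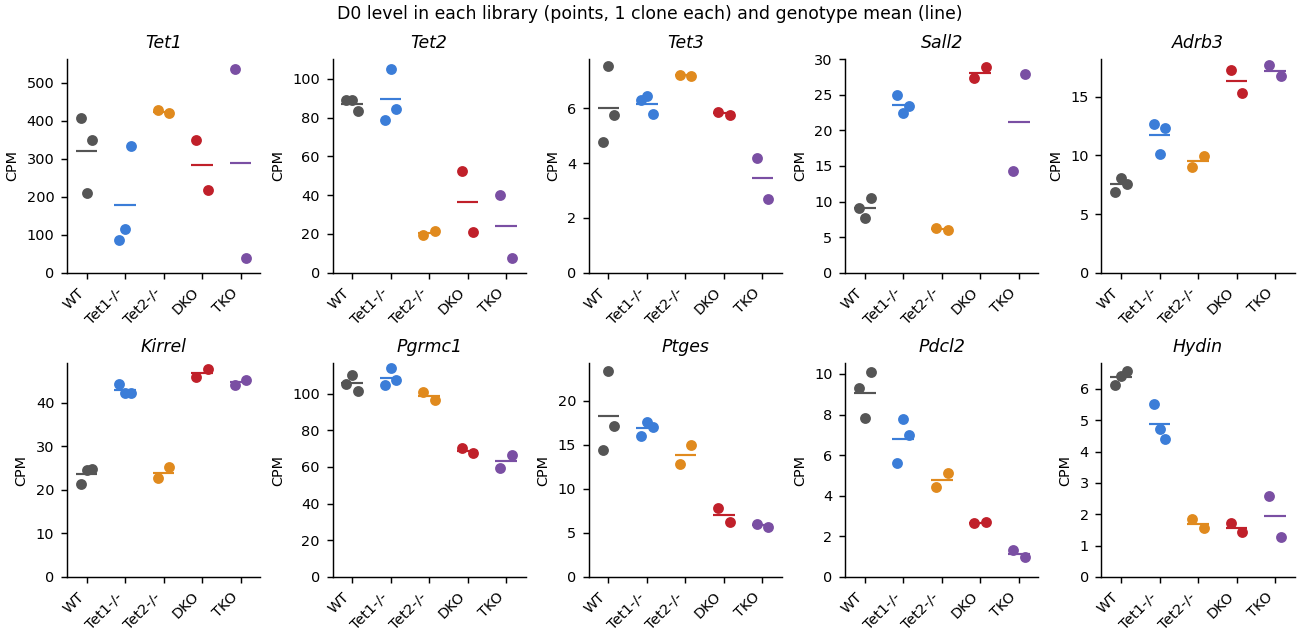
CPM (y axis, from 0) of Tet1, Tet2, Tet3 and the 7 genes with an adjusted p under 0.05 in each D0 library, with 1 point per clone and a line at the genotype mean. Kirrel is high in Tet1-/-, DKO and TKO, Sall2 in Tet1-/- and DKO and, in 1 clone, in TKO, Hydin is low in Tet2-/-, DKO and TKO, and Pgrmc1 and Ptges are low in DKO and TKO.

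Among the gene lists, that of glycolysis and glucose transport had the most members past an unadjusted p of 0.05 in 1 direction. Glycolysis turns glucose into pyruvate, and naive ESCs are known to use it together with respiration. Of 26 members tested, 0 were called, 14 were lower and 1 (Pfkm) higher at an unadjusted p under 0.05, against 7.87% and 6.52% of all genes. Both DKO libraries were below all WT libraries at 20 members, as in 20.5% of all genes, and the median log2 fold change was -0.46, against -0.01 over all genes tested. The 14 became 6 without WT clone O4.1, 9 without O4.13 and 7 without either DKO clone. The members summed to 10800 and 11010 CPM in DKO and to 14980, 15040 and 14100 in WT.

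By step, uptake comes first. The glucose transporter Slc2a3 had 975 and 987 CPM in DKO and 1641, 1733 and 1289 in WT (log2 fold change -0.66, SE 0.144, adjusted p = 0.0844), and Slc2a1 had 325 and 314 CPM in DKO and 543, 632 and 503 in WT (log2 fold change -0.81, adjusted p = 0.12). Among the enzymes, the aldolase Aldoc had 5.92 and 6.90 CPM in DKO and 19.7, 22.9 and 18.5 in WT (log2 fold change -1.67, adjusted p = 0.155). The abundant aldolase Aldoa had 1132 and 1172 CPM in DKO and 1638, 1739.8 and 1556 in WT, and pyruvate kinase, Pkm, the highest member, had 2926 and 2987 CPM in DKO and 3599, 3647 and 3699 in WT. Pkm and Aldoa differed less, with log2 fold changes of -0.30 and -0.51. Lactate dehydrogenase Ldha had 1353 and 1286 CPM in DKO and 1664, 1857 and 1669 in WT (log2 fold change -0.39). The lactate exporter Slc16a3, named after its values were seen, had 32.4 and 33.5 CPM in DKO and 101, 102 and 97.9 in WT, and triose phosphate isomerase, Tpi1, likewise chosen, had 235 and 286 CPM in DKO and 589.8, 649 and 513 in WT. With the 5 DKO and WT libraries alone, 4 members were called lower: Slc16a3 (adjusted p = 9.05e-05), Aldoc (0.00278), Pfkp (0.00324) and Tpi1 (0.00365). The Tet1-/- clones had sums of 13360, 12540 and 10860 CPM and the Tet2-/- clones 20960 and 16600, so DKO lay at the low end of Tet1-/- and below Tet2-/-. Against Tet2-/-, 10 of 26 members were called lower in DKO (3.16% of all genes) and 0 higher.

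Genes of the 2-cell state were on the other side. These genes are expressed in the 2-cell embryo and, in ESC cultures, in a small fraction of cells at a time. Of 35 listed genes, 16 were tested, 15 of the others were too low and the rest are not in the table. Of the 16, 0 were called, 8 were higher and 0 lower at an unadjusted p under 0.05, against 6.52% and 7.87% of all genes, 10 lay above WT without overlap, as did 20.7% of all genes, and the median log2 fold change was 1.02. The 8 became 4 without DKO-1. Members that passed the filter on low counts are described here, not the whole list.

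Pramel7, a member of the Prame family, had 2.13 and 2.69 CPM in DKO and 0.115, 0.587 and 0.492 in WT (log2 fold change 2.59, SE 0.51, adjusted p = 0.0769). Zscan4d, which marks the 2-cell-like state of ESCs, had 5.59 and 2.97 CPM in DKO and 0.918, 1.10 and 1.80 in WT (log2 fold change 1.75, adjusted p = 0.0976), and the deubiquitinase Usp17le had 3.46 and 2.18 CPM in DKO and 0.765, 1.02 and 1.56 in WT. In each of these the lower DKO library was above all WT libraries, at levels of a few CPM. DKO-1 was higher than DKO-2 for Zscan4d, Usp17le and Gm5662, and lower for Pramel7. Eif1a, the most abundant member, had 512 and 523 CPM in DKO and 379, 445 and 422 in WT, and Zfp750 had 7.84 and 6.16 CPM in DKO and 5.47, 7.75 and 7.01 in WT with overlap. Zscan4, Usp17 and Tcstv genes belong to families of near-identical copies, so the count of a single member is uncertain. With the 5 DKO and WT libraries alone, Pramel7 (adjusted p = 0.0248) and Zscan4d (0.0357) were called, and without the TKO libraries 5 members were called. Against Tet1-/-, 11 of the 16 were higher in DKO at an unadjusted p under 0.05 (2.90% of all genes) and 0 were called. Against Tet2-/-, 13 of 16 were called higher in DKO (3.20% of all genes). Against WT, Tet2-/- itself had 8 of 16 called lower (343 of 14456 genes) and 0 higher, with a median log2 fold change of -2.01. TKO, which also lacks Tet1 and Tet2, had 7 of 16 called lower than in WT (306 of 14456 genes) and 0 higher, with a median of -2.06.

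**Figure D3:**
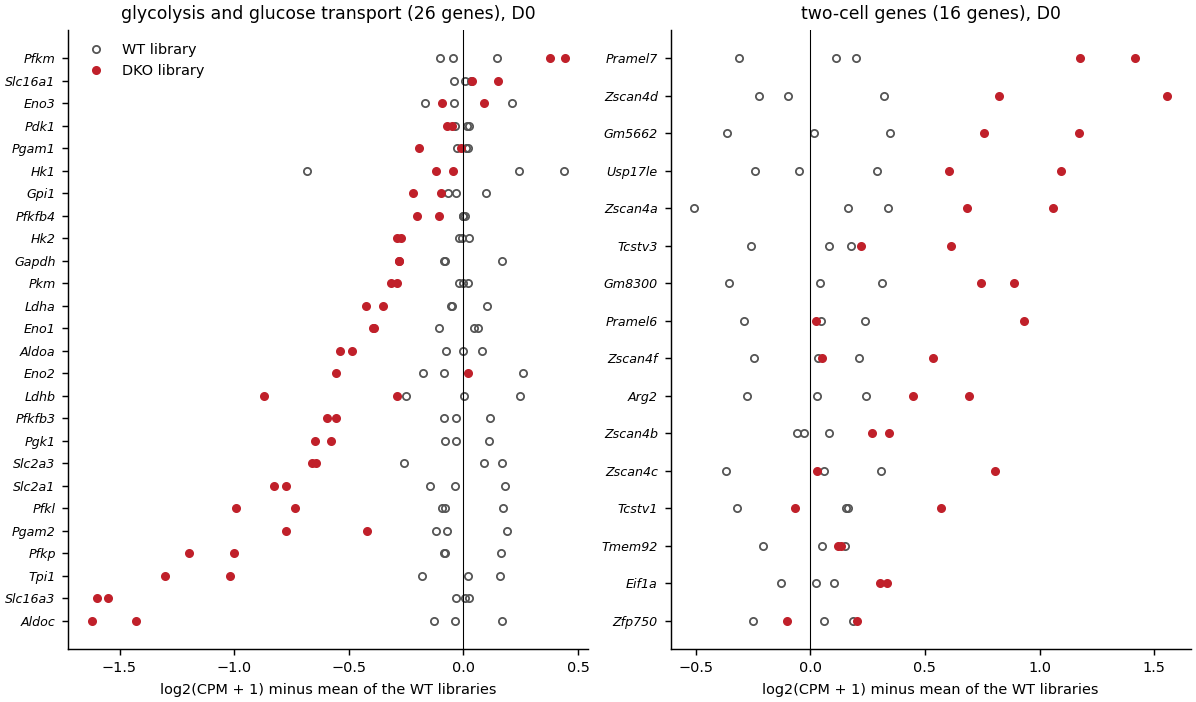
Each row is a gene of glycolysis and glucose transport (left, 26 genes) or of the 2-cell state (right, 16 genes), and the x axis is log2(CPM + 1) minus the mean of the WT libraries at D0. DKO libraries (filled) lie left of the WT libraries (open) for most glycolysis genes, and right of them for 10 of the 2-cell genes.

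The core pluripotency list (16 tested) had 0 called, 2 higher and 1 lower at an unadjusted p under 0.05, against 6.52% and 7.87% of all genes, and a median log2 fold change of 0.09. Without DKO-1, 0 were higher, and without DKO-2 or WT clone O4.1, 1 was. Pou5f1 had 693 and 677 CPM in DKO and 810.1, 659 and 805 in WT, Trim28, a corepressor that holds retroelements silent, had 2628 and 2743 CPM in DKO and 2421, 2143 and 2519 in WT, and Dppa5a had 875 and 956 CPM in DKO and 745, 936 and 800.1 in WT. Only Trim28 among these did not overlap. Dnd1, an RNA-binding protein of germ cells, had the smallest p of the list, with 12.8 and 13.9 CPM in DKO and 19.5, 19.8 and 19.4 in WT (log2 fold change -0.55, adjusted p = 0.131).

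The naive list (20 tested) had 0 called, 2 higher and 2 lower at an unadjusted p under 0.05, against the same shares of all genes, and a median log2 fold change of -0.05. Jam2, an adhesion molecule, had 181 and 178 CPM in DKO and 78.7, 95.8 and 121 in WT (log2 fold change 0.86, SE 0.163, adjusted p = 0.0769). Pecam1, another adhesion molecule, had 50.3 and 69.5 CPM in DKO and 95.8, 105 and 86.9 in WT (log2 fold change -0.68, adjusted p = 0.0844). Aire, known for its role in the thymus, had 0.626 and 0.417 CPM in DKO and 3.59, 5.24 and 4.47 in WT (log2 fold change -3.07, adjusted p = 0.105). Aire was called lower with the 5 DKO and WT libraries alone, by DESeq2, without the filter on low counts and without the TKO libraries, and Jam2 was called higher with the replicate block. The nuclear receptor Esrrb had 709 and 699 CPM in DKO and 768, 804 and 750.1 in WT, and Klf2 had 367 and 312 CPM in DKO and 343, 310.2 and 361 in WT with a log2 fold change of 0.01. In the formative and primed list (16 tested), Sall2 was the member called, and it was not called without any 1 of the Tet1-/- or WT clones. At an unadjusted p under 0.05, 4 members, with Sall2, were higher and 1 lower (median log2 fold change 0.26), against 6.52% and 7.87% of all genes. Without DKO-2 these became 2 and 0. Pou3f1 (Oct6), the lower member, had 6.01 and 4.26 CPM in DKO and 8.26, 7.12 and 9.91 in WT and did not overlap. Otx2 had 52.1 and 48.4 CPM in DKO and 53.3, 50.9 and 59.2 in WT, with overlap.

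Chromatin genes were compared next. Polycomb subunits, which write and read repressive histone marks, had 7 members higher and 0 lower of 31 at an unadjusted p under 0.05, against 6.52% and 7.87% of all genes, 0 called, and a median log2 fold change of 0.14. Bmi1, a ring-finger subunit, had 10.5 and 11.4 CPM in DKO and 8.30, 6.26 and 6.51 in WT (log2 fold change 0.64, SE 0.158, adjusted p = 0.118). Rnf2, the ubiquitin ligase, had 339.8 and 324 CPM in DKO and 238, 286 and 258 in WT (log2 fold change 0.35). The abundant Jarid2 and Suz12 had log2 fold changes of 0.09 and 0.20, and their groups overlapped.

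The list of Tet genes and the DNA methylation machinery (23 tested) had 4 members lower and 1 higher at an unadjusted p under 0.05, against 7.87% and 6.52% of all genes, with 0 called and a median log2 fold change of -0.14. Without DKO-2 the 4 became 2, and without DKO-1 the 1 became 0. The higher member, Kdm2b, is also in the polycomb list. The lower members were Tet2 and, below 2-fold, Sin3a, Dnmt3l and Ogt. Sin3a, a corepressor scaffold, had 186 and 204 CPM in DKO and 267, 243 and 246 in WT (log2 fold change -0.37, adjusted p = 0.15). Ogt, which adds N-acetylglucosamine to proteins, had 205 and 215 CPM in DKO and 243, 249 and 251 in WT, and Dnmt3l, a cofactor of the de novo methyltransferases, had 195 and 197 CPM in DKO and 249, 236 and 237 in WT. These genes did not overlap between the groups, as in 20.5% of all genes. The maintenance methyltransferase Dnmt1 had 284 and 284 CPM in DKO and 331, 272 and 293 in WT and its partner Uhrf1 304 and 352 CPM in DKO and 404, 312 and 341 in WT, both with overlap. Without the TKO libraries, 7 members of this list were lower and 2 higher at an unadjusted p under 0.05, against 1809 and 1604 of 14364 genes.

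Among signalling lists, 4 members of the Nodal and Lefty list (16 tested) were lower and 0 higher at an unadjusted p under 0.05, against 7.87% and 6.52% of all genes, with 0 called and a median log2 fold change of -0.08. Lefty1 and Lefty2 are secreted inhibitors of Nodal. Lefty1 had 13.9 and 8.90 CPM in DKO and 60.0, 12.5 and 55.2 in WT (log2 fold change -1.90, SE 0.544, adjusted p = 0.155), and Lefty2 had 62.4 and 65.9 CPM in DKO and 219.6, 73.3 and 192 in WT (log2 fold change -1.33, SE 0.388, adjusted p = 0.157). WT clone O4.2 was near the DKO level for both, and overlapped it for Lefty1. The 4 lower members became 2 without DKO-2, and Lefty1 and Lefty2 were called without the TKO libraries or without either of them. The inhibitory Smad7 had 105 and 102 CPM in DKO and 128, 146 and 122 in WT, and the coreceptor Tdgf1 had 718 and 644 CPM in DKO and 673, 759 and 736 in WT. In the BMP and Id list (15 tested, median 0.24), 4 were higher and 0 lower, against 6.52% and 7.87% of all genes, among them Bambi, a decoy receptor. The 4 became 0 without DKO-1 and 1 without WT clone O4.1. The signal transducer Smad1 had 30.9 and 21.5 CPM in DKO and 20.4, 18.8 and 17 in WT, the receptor Bmpr1a 147 and 133 CPM in DKO and 99.5, 128 and 113 in WT and the homeobox target Msx2 1.67 and 1.11 CPM in DKO and 0.612, 0.704 and 0.983 in WT. None of their adjusted p-values was under 0.187.

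The Wnt list (19 tested) had a median log2 fold change of 0.05, with 1 member higher (2 without either DKO clone) and 1 lower at an unadjusted p under 0.05, against 6.52% and 7.87% of all genes, the secreted Wnt inhibitor Notum with 31.0 and 41.5 CPM in DKO and 17.2, 19.6 and 24.5 in WT (log2 fold change 0.83, adjusted p = 0.0759) and the homeobox gene Cdx1 with 2.29 and 2.87 CPM in DKO and 5.01, 4.42 and 4.63 in WT. Beta-catenin (Ctnnb1) had 1347 and 1296 CPM in DKO and 1191, 1317 and 1320.1 in WT. In the LIF and STAT3 list (21 tested, median -0.07) 1 was higher and 2 lower, against the same shares, and 0 were higher without DKO-1 or WT clone O4.1 and 2 without O4.2 or any 1 Tet2-/- or TKO clone. In that list the kinase Pim1 had 61.0 and 54.8 CPM in DKO and 100.3, 76.4 and 76.2 in WT (log2 fold change -0.54, adjusted p = 0.13). In the FGF and ERK list (22 tested, median -0.02) Fgfr3, an FGF receptor, was the 1 lower member, with 0.542 and 0.649 CPM in DKO and 1.61, 2.70 and 1.56 in WT, and 0 were higher, while the feedback inhibitor Spry4 had 394 and 305 CPM in DKO and 261, 284 and 271 in WT (adjusted p = 0.367). The p53 target list (26 tested, median 0.03) had 4 higher and 2 lower (2 and 2 without DKO-1), led by Perp, a desmosome-associated membrane protein, with 72.8 and 52.1 CPM in DKO and 39.3, 38.7 and 39.4 in WT (adjusted p = 0.105). None of these lists had a member called, and with the 5 DKO and WT libraries alone Fgfr3 was called lower. Without the TKO libraries, 1604 of 14364 genes were higher and 1809 lower at an unadjusted p under 0.05. The list counts were then 4 higher and 3 lower for FGF and ERK, 7 and 4 for p53 targets, 2 and 2 for Wnt and 2 and 3 for LIF and STAT3.

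The lineage and fibroblast lists had 0 called in the main edgeR fit, and other edgeR settings called at most 1 member of a list. Without the TKO libraries, 1604 of 14364 genes were higher and 1809 lower at an unadjusted p under 0.05. The list counts were then 5 higher and 1 lower for primitive streak and mesoderm and 3 and 2 for endoderm. They were 3 and 3 for both neuroectoderm and trophectoderm. With the 5 DKO and WT libraries alone, and also by DESeq2, Kdr and En1 were called higher and Hnf4a and Pdgfrb lower. Of 15 primitive streak and mesoderm genes, 2 were higher and 0 lower at an unadjusted p under 0.05 (all genes 6.52% and 7.87%, also for the lists that follow), with 1 higher without DKO-2 and 4 without WT clone O4.2: the VEGF receptor Kdr had 5.92 and 9.59 CPM in DKO and 1.45, 3.36 and 2.05 in WT (log2 fold change 1.76, SE 0.369, adjusted p = 0.0844), and the PDGF receptor Pdgfra had 1.59 and 2.32 CPM in DKO and 1.03, 1.21 and 1.07 in WT. Of 15 endoderm genes, 2 were lower and 0 higher (1 lower without DKO-2 or WT clone O4.13), Hnf4a, a nuclear receptor of liver and gut, with 0.501 and 0.139 CPM in DKO and 2.33, 5.125 and 2.66 in WT (log2 fold change -3.35, SE 0.602, adjusted p = 0.0744; DKO-2 was at the level of 3 counts) and Apoe, which carries lipids, with 145 and 120.0 CPM in DKO and 229, 171 and 252 in WT. Of 12 neuroectoderm genes, 3 were higher and 0 lower (2 and 2 without WT clone O4.2, 2 and 1 without DKO-1), with the homeobox gene En1 at 7.13 and 5.14 CPM in DKO and 2.41, 2.03 and 2.46 in WT (log2 fold change 1.42, adjusted p = 0.0859). Of 12 trophectoderm genes, 1 was higher and 3 lower, and the 3 became 0 without DKO-1 or WT clone O4.2 and 1 without DKO-2. Among them the transcription factor Tfap2c had 41.0 and 46.3 CPM in DKO and 60.8, 79.1 and 51.5 in WT. The fibroblast list (13 tested) had 1 higher and 1 lower, the latter Pdgfrb, with 3.67 and 3.80 CPM in DKO and 7.23, 9.35 and 6.84 in WT.

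Germline genes whose promoters are known to be held silent by DNA methylation lay on both sides. Of 36 tested, 0 were called, 5 were higher and 5 lower at an unadjusted p under 0.05, against 6.52% and 7.87% of all genes, and the median log2 fold change was 0.11. Without WT clone O4.1, 2 were higher and 6 lower, with a median of -0.13. Without either DKO clone, 3 were higher. Smc1b, the meiotic cohesin subunit, had 1.59 and 2.04 CPM in DKO and 5.35, 6.96 and 3.48 in WT (log2 fold change -1.54, adjusted p = 0.0769), Fkbp6 had 0.417 and 1.11 CPM in DKO and 1.76, 2.58 and 3.114 in WT and Stag3, another meiotic cohesin subunit, had 7.84 and 7.37 CPM in DKO and 16.8, 15.5 and 10.8 in WT. These were below all WT libraries. Tex19.1, which acts against retrotransposons in germ cells, had 109 and 146 CPM in DKO and 37.4, 76.1 and 59.0 in WT, and both DKO libraries exceeded all WT libraries (log2 fold change 1.15, adjusted p = 0.262). With the 5 DKO and WT libraries alone, Tex19.1 (adjusted p = 0.0393) was called higher and Smc1b (0.0374) lower, and DESeq2 called Smc1b and Fkbp6 lower and 0 higher.

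Imprinted genes (43 tested) had 2 members higher and 5 lower at an unadjusted p under 0.05, against 6.52% and 7.87% of all genes, with 0 called and a median log2 fold change of -0.10, and without DKO-1 1 was higher and 1 lower. The paternally expressed Sgce had 1.21 and 1.44 CPM in DKO and 3.82, 3.83 and 2.13 in WT (log2 fold change -1.30, adjusted p = 0.105), Plagl1, a zinc-finger factor, had 6.97 and 8.06 CPM in DKO and 4.01, 2.97 and 4.67 in WT (log2 fold change 0.95, adjusted p = 0.112), and Usp29 had 1.79 and 2.55 CPM in DKO and 2.75, 5.55 and 4.55 in WT. Sgce was called lower by DESeq2 and without the TKO libraries. In the latter setting 5 imprinted genes were higher and 5 lower at an unadjusted p under 0.05, against 1604 and 1809 of 14364 genes. Slc38a4, an amino acid transporter and the highest member, had 367 and 359 CPM in DKO and 326, 390.5 and 351 in WT (log2 fold change 0.03). Of 5 Rhox genes tested, 0 were past an unadjusted p of 0.05. Y-linked genes (4 tested) varied between clones of 1 genotype: Ddx3y had 4.59 and 13.7 CPM in DKO and 4.74, 119 and 18.6 in WT, and Eif2s3y had 6.72 and 24.2 CPM in DKO and 6.23, 62.5 and 16.3 in WT.

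The 2 DKO clones were close to each other. Of 8731 genes with at least 10 CPM in a DKO clone, 8 (0.0916%) differed more than 2-fold between the clones on log2(CPM + 1), and 0 more than 4-fold. These were Eif2s3y, Ddx3y, Prrc1, Pla2g1b, Magohb and Smoc1, higher in DKO-2, and Tet2 and Lars2, higher in DKO-1, all named because they differed. Of the 5 called genes, Adrb3 spread more in CPM between the DKO clones than between the WT clones, and the others spread less. By chromosome, medians of log2 fold change lay between -0.10 and 0.05 on every autosome and X, with chromosome 6 lowest (median -0.10, 15 genes higher and 75 lower at an unadjusted p under 0.05 of 610, against 6.52% and 7.87% of all genes). On chromosome 6 the medians relative to the WT mean were -0.09 in DKO-1 and -0.04 in DKO-2, and WT clone O4.13 was at -0.07, so the groups overlapped there. Chromosome 8 had a median of 0.12 in DKO-1 and -0.02 in DKO-2 relative to the WT mean, and WT clones O4.1 and O4.2 stood at 0.09 and -0.10 there. Chromosome 11 had a median of -0.05 in DKO-1 and 0.11 in DKO-2, and the WT clones stood at -0.05, 0.05 and 0.01.

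The DKO clones were then set beside its single knockouts at D0. Against Tet1-/-, 0 of 14456 genes were called by edgeR (0% of genes), 419 (2.90%) were higher and 496 (3.43%) lower at an unadjusted p under 0.05 and DESeq2 called 31, while the 5 Tet1-/- and DKO libraries alone gave 68. Against Tet2-/-, 919 genes (6.36%) were called, 462 higher and 457 lower in DKO. This count fell to 145 without DKO-1 and 171 without the first Tet2-/- replicate, and rose to 1260 without the first TKO replicate. Of the named lists, germline genes were called higher in DKO than in Tet2-/- at 18 of 36 members and lower at 0, and Nodal and Lefty genes lower at 2 of 16, against 3.20% of all genes higher and 3.16% lower. The spread of log2 fold changes over all genes had an SD of 0.344 against Tet1-/-, 0.428 against WT and 0.691 against Tet2-/-.

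Whether the DKO differed from the sum of its single knockouts was tested as the contrast DKO minus Tet1-/- minus Tet2-/- plus WT. Of 14456 genes, 60 (0.415%) were called, 44 above the sum (0.304%) and 16 below it (0.111%). At the 44, the median log2 fold change against WT was -0.42 in Tet1-/-, -2.34 in Tet2-/- and 0.06 in DKO, and at the 16 it was 0.04, 1.08 and -0.23, and the DKO medians thus lay nearer to 0 than those of Tet2-/-. The DKO and single knockout values share the WT libraries and the contrast selects genes where they differ. Dazl, an RNA-binding protein of germ cells, had 11.2, 26.2 and 16.3 CPM in WT, 14.2, 19.6 and 18.4 in Tet1-/-, 3.85 and 3.24 in Tet2-/- and 15.3 and 21.8 in DKO (contrast 2.43, SE 0.426, adjusted p = 0.0338). Gm8300, a 2-cell gene, had 0.918, 1.53 and 2.05 in WT, 1.19, 1.75 and 1.57 in Tet1-/-, 0.0802 and 0.408 in Tet2-/- and 3.55 and 3.105 in DKO (contrast 3.61, adjusted p = 0.0338). Txnip, an inhibitor of thioredoxin and of glucose uptake that is in no list, had 135, 123 and 102 in WT, 86.6, 98.7 and 82.0 in Tet1-/-, 32.7 and 22.7 in Tet2-/- and 84.2 and 85.6 in DKO (contrast 2.05, adjusted p = 0.0156). The count depended on single libraries: it was 1 to 8 without any 1 of the DKO, Tet1-/- or Tet2-/- clones or WT clone O4.13, 28 without O4.2, 183 without O4.1 and 611 without either TKO clone.

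**Figure D4:**
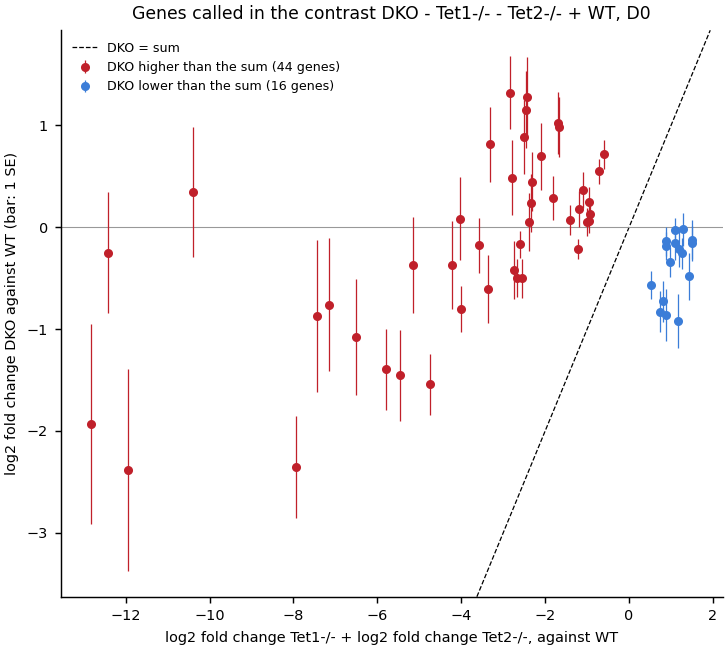
For the 60 genes called in the contrast of DKO with the sum of both single knockouts, the x axis is the summed log2 fold change of Tet1-/- and Tet2-/- against WT and the y axis that of DKO against WT, with vertical bars of 1 SE. Points would lie on the dashed line if DKO equalled the sum, and 44 genes lie above it and 16 below it.

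The same clones after 6 days without LIF gave a second measurement of the DKO effect. At D6, 0 of 15435 genes (0%) were called for DKO against WT by edgeR, 1070 (6.93%) were higher and 1181 (7.65%) lower at an unadjusted p under 0.05, and DESeq2 called 185. Leaving out 1 library gave up to 22 calls (without the second Tet1-/- replicate). The clones varied more than at D0, with coefficients of 0.109 in DKO and 0.215 in WT. The difference between days had 0 of 15639 genes called (558 above and 697 below at an unadjusted p under 0.05, 3.57% and 4.46%, 20 by DESeq2, 5 with the DKO and WT libraries alone and 3 with the clone as a block).

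Sall2 did not pass the test at D6, with 108 and 136 CPM in DKO and 75.4, 89.1 and 66.6 in WT (log2 fold change 0.66, SE 0.186, adjusted p = 0.205, edgeR). Adrb3 had 10.2 and 8.36 CPM in DKO and 7.20, 4.63 and 5.63 in WT, Pdcl2 had 0.455 and 0.347 CPM in DKO and 0.538, 2.88 and 1.48 in WT, and Hydin had 0.91 and 0.897 CPM in DKO and 0.968, 1.91 and 2.08 in WT, all without overlap in the D0 direction, as in 18.5% (higher) and 18.7% (lower) of all genes at D6. Ptges (4.76 and 4.95 CPM in DKO and 3.66, 6.19 and 4.73 in WT), Kirrel and Pgrmc1 overlapped at D6. Of the 2-cell genes, 12 of 16 were higher and 0 lower at an unadjusted p under 0.05, against 6.93% and 7.65% of all genes, with a median log2 fold change of 2.71. Zscan4d had 2.17 and 1.45 CPM in DKO and 0.161, 0.156 and 0.0671 in WT (log2 fold change 3.82, SE 0.904), and Eif1a had 371 and 349 CPM in DKO and 277, 282 and 237 in WT. At the same level and against the same shares, germline genes had 17 of 37 higher and 0 lower at D6, and glycolysis genes 8 of 26 lower and 0 higher. Mesoderm genes, which LIF withdrawal induces, had 9 of 22 lower and 0 higher in DKO (7.65% and 6.93% of all genes). Kdr, for which both DKO clones lay above WT at D0, had 14.2 and 3.76 CPM in DKO and 86.7, 21.8 and 125 in WT at D6, and its change between days was -4.90 on the log2 scale (SE 1.19, adjusted p = 0.372).

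**Figure D5:**
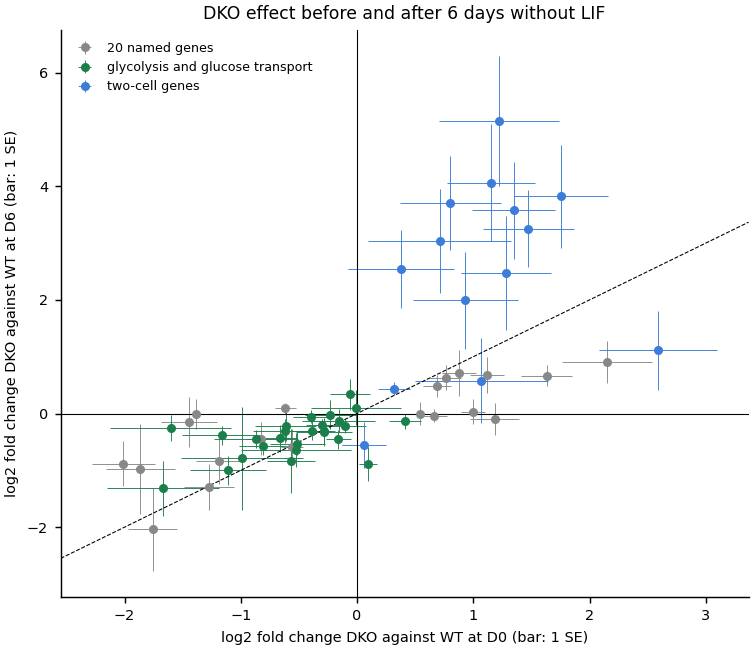
Log2 fold change of DKO against WT at D0 (x axis) and D6 (y axis) for the 20 genes named first, the glycolysis list and the 2-cell list, with bars of 1 SE on both axes and a dashed line of equal effect. Most 2-cell genes lie above the line and most glycolysis genes between the line and 0, and edgeR called no difference between days.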

How the data were processed

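Polyadenylated RNA was sequenced in paired ends from 12 clones at D0 and 12 at D6. The authors aligned reads to mm9 with STAR (version 2.5.1 in the submitters' processing notes) and deposited raw counts per RefSeq transcript. The supplementary notes name HTSeq as the counter, and the count tables are labelled featureCounts. Strand handling was not given in the sources used here, so antisense or overlapping genes and near-identical family members are uncertain. The tables hold 31928 rows and 22926 gene symbols, 4911 of them with more than 1 row, and the first row per symbol was used.

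Each gene kept by edgeR's filterByExpr (minimum count 10) was tested in R 4.3.3 with edgeR 4.0.16 (TMM scaling, quasi-likelihood test), all 12 D0 libraries in 1 fit. The D6 libraries were fitted alike, and both days in 1 fit for the difference between days. P-values were adjusted over all genes by the Benjamini-Hochberg method, and a call needed an adjusted p under 0.05 and a change over 2-fold. The alternatives included DESeq2 1.42.0. All clones came from 1 parental line, so p-values measure the spread between clones. The labels' replicate numbers of DKO and WT were not taken as pairs, since nothing ties them and only 2 numbers are shared.

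Named were Tet1 to Tet3, the called genes without overlap filled up by p to 10 in each direction, called list members, and per list up to 4 of the highest level and up to 3 of the smallest p. Genes outside this rule, among them Slc16a3, Tpi1, Pfkp, Tex19.1, Bambi, Kdm2b, Txnip and the genes that differ between DKO clones, were chosen after their values were seen. The comparison, the gene lists and the tests were chosen with earlier results of these data known. On simulated counts for DKO against WT at D0 (14268 genes tested), 94% of genes changed by 1.5 on the log2 scale and 99% of those changed by 2.5 were called, with 5 false calls. Only genes above a minimum level were changed, 100 per size, and all clones were given the same spread per gene. The wider spread of the TKO clones was thus absent, and these shares do not carry over to the real fit. There, Naa11 was not called at a log2 fold change of -1.87.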

Additional observations from a re-analysis of the deposited data

Results flagged for a closer look

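The contrast of DKO with the sum of both single knockouts at D0 is a test of a difference between groups, and it called 60 genes. Members of the gene lists and of the genes named first for DKO against WT are given here where their adjusted p in this contrast was under 0.05, whatever their fold.

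Of the germline genes 4 of 36, of the 2-cell genes 3 of 16, of the Rhox genes 1 of 5 and of the Y-linked genes 3 of 4 were called above the sum, against 0.304% of all genes. The contrast was 2.43 on the log2 scale for Dazl, 3.21 for Smc1b, 2.77 for Rhox10, 3.61 for Gm8300, 3.72 for Zscan4a and 4.132 for Zscan4b. Zscan4b, at 0.0802 and 0.0272 CPM, and Gm8300, at 0.0802 and 0.408, were near 0 in Tet2-/-, so their fitted values are no bound on a fold. Smc1b, the meiotic cohesin subunit, had 5.35, 6.96 and 3.48 CPM in WT, 1.49, 1.03 and 1.15 in Tet1-/-, 0.882 and 0.789 in Tet2-/- and 1.59 and 2.04 in DKO. Each knockout was thus below WT, and DKO was not below either single knockout. Rhox10, a homeobox gene of the reproductive system, had 2.94, 3.40 and 4.097 CPM in WT, 2.91, 2.32 and 2.60 in Tet1-/-, 1.08 and 0.789 in Tet2-/- and 5.21 and 4.26 in DKO.

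On the sex chromosomes the contrast was 5.44 for Usp26 and 10.74 for Xlr3a, which are counted above among the germline genes. It was 9.55 for Ddx3y, 6.57 for Eif2s3y and 10.90 for Uty, the Y-linked genes called. Most of these were near 0 in Tet2-/-, where Xlr3a was at 0 and 0.0272 CPM, so these fitted values too are no bound on a fold. Eif2s3y was at 1.56 and 0.571 CPM there. Ddx3y had 4.74, 119 and 18.6 CPM in the WT clones and 0.321 and 0.163 in Tet2-/-. Clones of 1 genotype differed widely for these Y-linked genes.

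Below the sum lay Akap2 (-0.79), Dusp9 (-0.64), Gapdh (-0.72) and Cdx1 (-1.73), all but the last under 2-fold. Gapdh, a glycolysis enzyme, had 1166, 979.8 and 978 CPM in WT, 993, 917 and 904 in Tet1-/-, 1575 and 1549 in Tet2-/- and 853 and 854 in DKO. Cdx1 had 5.01, 4.42 and 4.63 CPM in WT, 4.26, 3.88 and 4.21 in Tet1-/-, 8.50 and 11.0 in Tet2-/- and 2.29 and 2.87 in DKO.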

How the results depend on the processing

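For DKO against WT at D0 (2 genes called higher and 3 lower), other scalings, a minimum count of 50 and the row of highest count gave 2 higher and 3 or 4 lower. No filter on low counts gave 25 and 54, the 5 libraries alone 36 and 97, DESeq2 31 and 79, the replicate block 6 and 11, and leaving out the TKO libraries, chosen after seeing the data, 82 and 146. Leaving out 1 library gave 0 to 86 higher and 0 to 149 lower, the highest without the first TKO replicate. Against Tet1-/- (0 called), the counts were 6 without the filter, 68 with the 2 groups alone, 32 without TKO and 31 by DESeq2, and 0 to 31 leaving out 1 library. Against Tet2-/- (919), leaving out 1 library gave 145 to 1260. The contrast with the sum of single knockouts (60) gave 182 without the filter, 606 without TKO, 263 by DESeq2 and 1 to 611 leaving out 1 library. At D6 (0), the 2 groups alone gave 3 and DESeq2 185, and leaving out 1 library 0 to 22. The difference between days (0) gave 5 with the groups alone, 3 with the clone as a replicate block, 20 by DESeq2 and 0 to 14 leaving out 1 library. Other causes of these shifts were not tested.

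The log2 fold change of Tet1 turned from negative to 0.12 under the replicate block, to 0.12 without DKO-2 and to 0.02 without WT clone O4.1, with a range of -0.56 to 0.12 leaving out 1 library. That of Tet3 turned to 0.15 without WT clone O4.2, with a range of -0.19 to 0.15. Of the other values of named genes under the alternatives, 392 kept direction and side of the threshold, 41 kept direction and lost it, and 45 gained it. Only called genes could lose it: Sall2 and Hydin did so in 10 of 21 settings each, Ptges in 9, Adrb3 in 8 and Pdcl2 in 4. Deviations of same-numbered DKO and WT clones correlated across genes at 0.05 and 0.10, and the numbers were not taken as pairs. The block moved the counts called in the comparisons with Tet1-/-, Tet2-/- and the sum of single knockouts by less than 1.5 times. With 2 DKO clones, the spread between them rests on 1 difference. Genes near 3 counts per library (0.125 to 0.139 CPM in DKO) carry too few reads for small changes to be detectable.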
